A study of Mus musculus with 40 samples.

Results

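The 10 genes followed here encode proteins of the postsynaptic scaffold and were taken as a family, by name: Shank1, Shank2, Shank3, Homer2, Homer3, Dlg4, Dlg2, Dlgap1, Dlgap2 and Dlgap3. Each was found once among the 32531 gene symbols of the count files. The scaffold joins glutamate receptors to the actin skeleton beneath the synaptic membrane of dendritic spines. Proteins of the Dlg family, PSD-95 (Dlg4) and PSD-93 (Dlg2), hold NMDA receptors and AMPA receptor partners at the membrane. The Dlgap proteins bind the Dlg proteins and, by their C-terminal end, the PDZ domain of the Shank proteins. Shank proteins in turn bind Homer proteins, which couple to group I metabotropic glutamate receptors and inositol trisphosphate receptors. Spiny neurons of the striatum receive most of their excitatory input on spines that carry this scaffold.

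The RNA was that bound to EGFP-tagged ribosomes, pulled down from the accumbens nucleus. The mice were adults of the Drd1-TRAP line CP73 (Drd1-EGFP/Rpl10a), in which the D1 dopamine receptor gene drives a tagged ribosomal protein L10a, on an FVB/N-Swiss Webster background crossed to C57BL/6. All groups carried the transgene and had gone through intravenous self-administration with long access. At 24 hours afterwards there were 5 escalating cocaine, 9 nonescalating cocaine and 6 saline libraries. At about 1 month there were 4 escalating cocaine, 10 nonescalating cocaine and 5 saline libraries. Library 1595, a further nonescalating one at 1 month, was dropped for its total of 5168 counts, so 39 of 40 libraries were used. Libraries are called by the number in their label. Nothing in the labels says that libraries come from separate animals, and nonescalating replicate numbers occur more than once, so p-values measure the spread between these libraries, which may be technical. The sample index of the labels restarts for the 1-month libraries, so time and library set cannot be told apart. No unbound or input RNA was analysed here.

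Libraries of the 6 groups held 3.77 to 33.9 M counts. Markers of D1 medium spiny neurons were present in every library, at summed levels of 253 to 1630 CPM (a gene's count relative to the library's total count, scaled by the trimmed mean of M values, TMM). Saline 24-hour library 1573 had the lowest of these, 253 CPM, and the highest summed levels of its group for the markers of astrocytes (3230 CPM), oligodendrocytes (1540 CPM) and vascular cells (1640 CPM). Libraries 1573, 1574 and 1582, a nonescalating 24-hour library, stood apart for members described below. Several of the member results that rest on them are given with and without them. These 3 also had the largest shares of reads outside features of the 39, at 70.3%, 51.1% and 40.4% for 1573, 1574 and 1582. The part of this in the results was not tested. In such bulk samples fewer cells of a type and less RNA per cell cannot be told apart.

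The shared C-terminal end of the Dlgap family, which the Shank PDZ domain binds, is written into the last 4 codons before the stop. The last 30 coding bases of the 3 members are shown because this end ties the Dlgap genes to the Shank genes followed beside them. They were read from the GENCODE vM21 transcripts of GRCm38, and the capitals mark the last 4 codons.
Dlgap1: atctacatccccgaggcgCAGACCCGGCTC
Dlgap2: atctacatccctgaggccCAGACGCGGCTC
Dlgap3: atctacatccccgaggccCAGACCAGGCTG
The stop codon follows at chromosome 17, position 70818232 for Dlgap1, at chromosome 8, position 14846706 for Dlgap2 and at chromosome 4, position 127236366 for Dlgap3, all on the plus strand. The 12 bases in capitals encode the same 4 residues in the 3 genes, and 9 of the 12 bases are shared by all 3. This end was present in 8 of 11 coding transcripts of Dlgap1, in 4 of 4 of Dlgap2 and in 3 of 3 of Dlgap3.

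The members spanned a wide range of levels, compared between genes only as CPM per kb of merged exons. Dlg2 led with 68.6 ± 13.7 CPM per kb (SD, n = 39 libraries), followed by Dlgap2 with 54.7 ± 15.6, Dlg4 with 46.9 ± 10.7 and Shank1 with 42.0 ± 29.2 CPM per kb. Dlgap3 had 25.6 ± 14.1, Shank3 19 ± 6.47, Shank2 15.7 ± 4.97 and Dlgap1 12.4 ± 4.92 CPM per kb. Neighbours in this order from Dlg2 to Dlgap1 differed by less than the larger SD of the pair, although the higher gene of each pair was ahead in 30 to 36 of 39 libraries. Homer2 stood a clear step lower at 1.27 ± 1.5 CPM per kb, under Dlgap1 in 39 of 39 libraries. Homer3 was at the edge of detection, with 0 counts in 19 of 39 libraries and at most 33 counts. It did not pass the filter on low counts in the fits reported here, so 9 of the 10 members were tested. The genes lie on 6 chromosomes (GRCm38): Shank1 at 44310253 to 44360572, Shank2 at 144001928 to 144424494, Homer2 at 81600481 to 81707527 and Dlg2 at 90476672 to 92449247 on chromosome 7. Dlgap2 lies at 14095865 to 14847680 and Homer3 at 70282827 to 70294361 on chromosome 8, and Dlg4 at 70016942 to 70047522 on chromosome 11. Shank3 lies at 89499623 to 89560261 on chromosome 15, Dlgap1 at 69969073 to 70821413 on chromosome 17 and Dlgap3 at 127169204 to 127237022 on chromosome 4. Exon lengths come from GENCODE vM21, and the annotation behind the counts was not named in the sources used here.

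**Figure D1:**
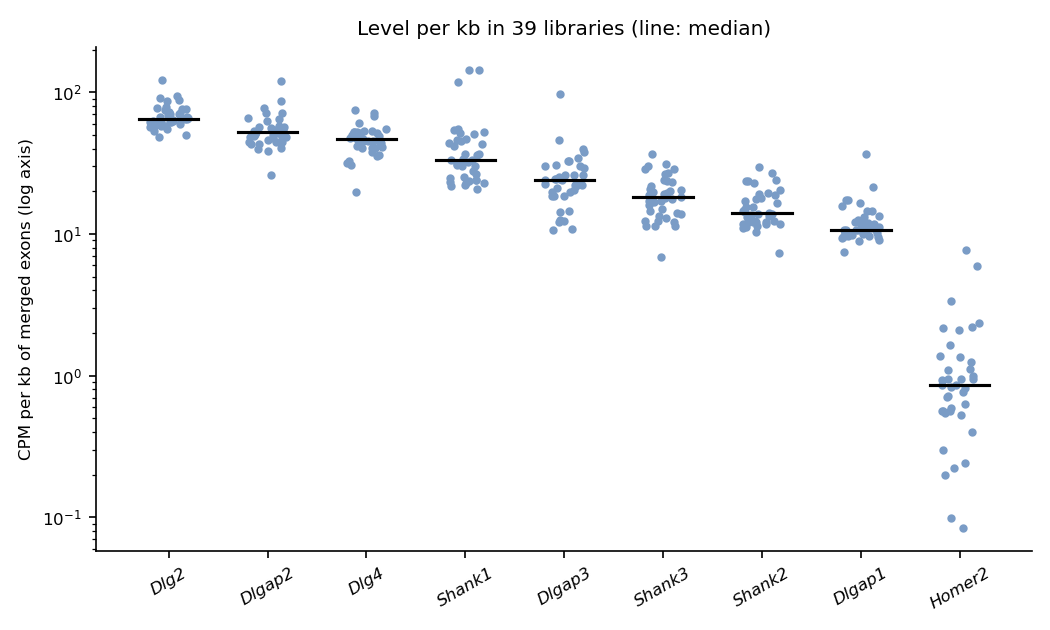
Level of 9 scaffold genes in CPM per kb of merged exons (log axis) in each of 39 libraries, with the median as a line; Homer3, at 0 in 19 libraries, is not drawn. Dlg2 has the highest median, 65.1 CPM per kb, and Homer2 the lowest, 0.856 CPM per kb.

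The spread between libraries also differed among the members. The coefficient of variation of CPM over the 39 libraries was 19.9% for Dlg2, 22.8% for Dlg4 and 28.6% for Dlgap2. It was 55.1% for Dlgap3, 69.4% for Shank1 and 118% for Homer2. Of the 10 members, 6 had their highest level in library 1573 or 1574, both saline at 24 hours. The same libraries held the lowest level of other members: Shank2 in 1574 (78.8 CPM), and Dlg4 (260 CPM) and Dlgap2 (159 CPM) in 1573. The share of all genes with an extreme level in these libraries was not computed. Shank1 had 1500 CPM in library 1573, 1510 CPM in library 1574 and 1250 CPM in library 1582, and at most 577 CPM in every other library. Library 1574 also held the highest Dlgap1 level, 660 CPM, and the highest Dlgap3 level, 436 CPM.

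**Figure D2:**
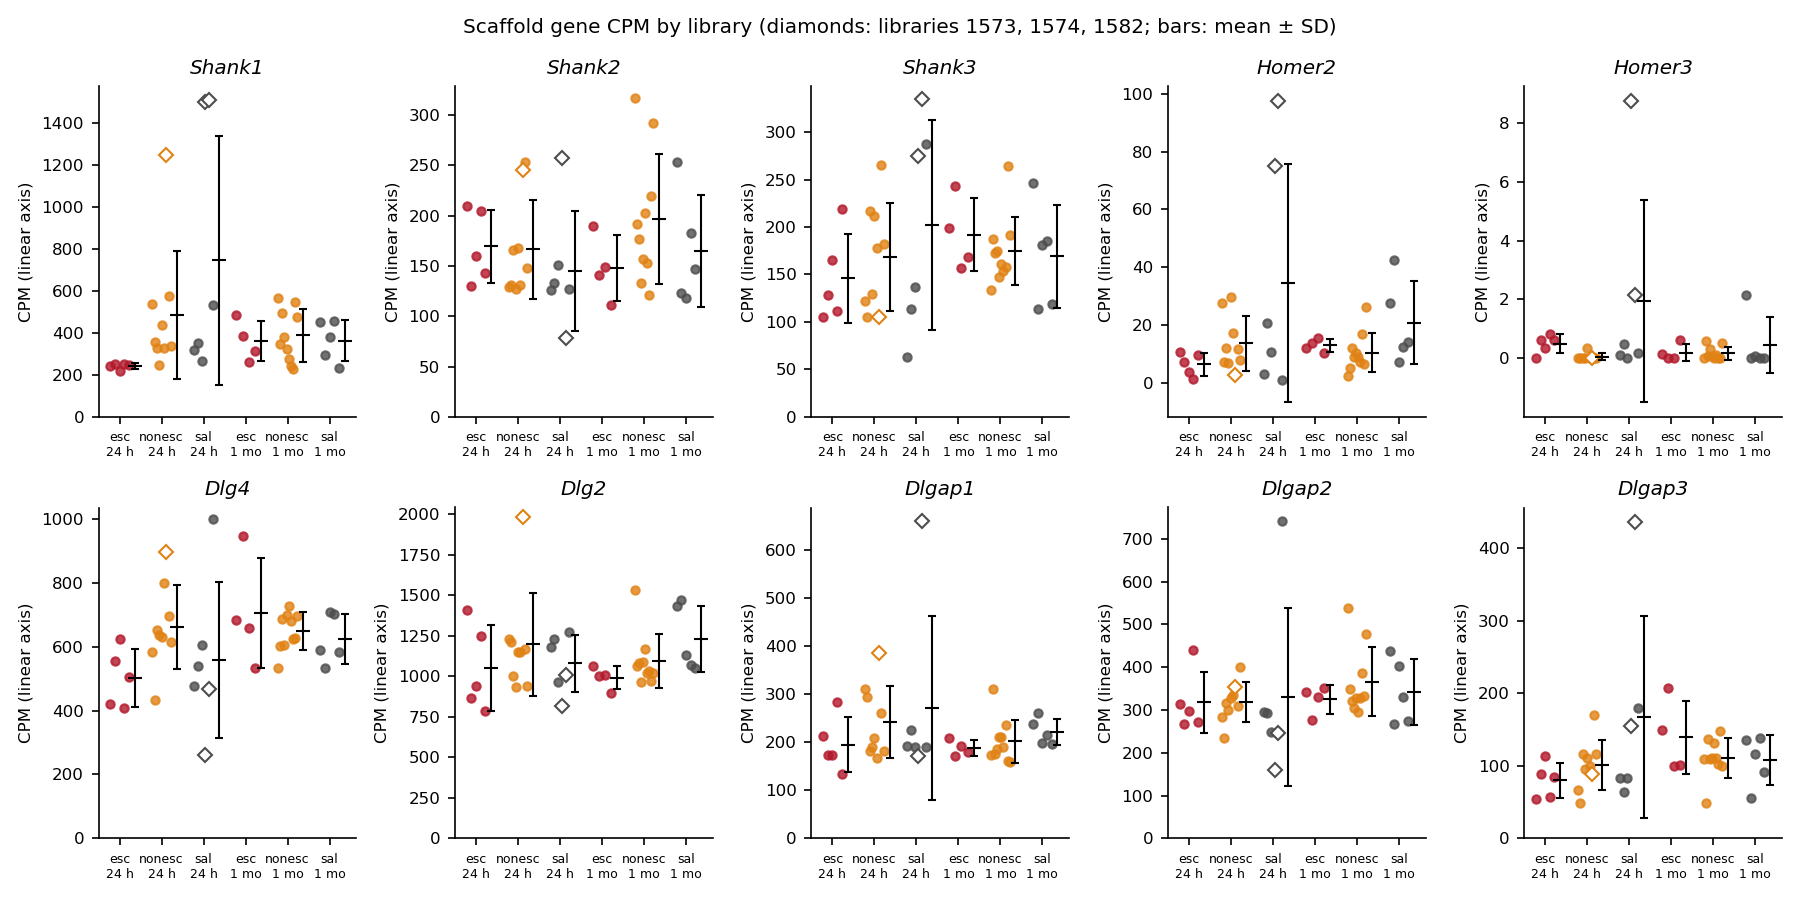
CPM of each scaffold gene (linear axes) by library in the escalating (esc), nonescalating (nonesc) and saline (sal) groups at 24 hours and at about 1 month (1 mo), with the group mean ± SD beside the points. The open diamonds, libraries 1573, 1574 and 1582, include the 3 Shank1 values from 1250 to 1510 CPM.

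No member passed an adjusted p of 0.05 in any of the 12 comparisons, which were edgeR quasi-likelihood F tests with Benjamini-Hochberg adjustment over 14137 to 15579 genes. No gene of the whole table passed either: the share called was 0.0% in each comparison. DESeq2 called genes in 10 of the 12 comparisons, and a member in 1 of them. This was the saline comparison between times, in which DESeq2 called the most genes. Counts at an unadjusted p under 0.05 are therefore given as a description, beside the share of all tested genes that reached it. The comparisons with saline share the saline libraries, and those at 1 time share 1 fit.

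Shank2, Shank3, Dlgap1 and Dlgap2 had overlapping groups in each of the 9 comparisons of 2 groups, and none had an unadjusted p under 0.05 in any of the 12 comparisons (edgeR). Shank2, a Shank form found at many glutamatergic synapses, averaged 170 ± 36.2 CPM in escalating (SD, n = 5), 166 ± 49.5 CPM in nonescalating (SD, n = 9) and 146 ± 59.6 CPM in saline libraries (SD, n = 6), all taken at 24 hours. The 1-month means were 148 ± 32.5 CPM in escalating (n = 4), 196 ± 64.8 CPM in nonescalating (n = 10) and 165 ± 55.9 CPM in saline libraries (n = 5). Shank3, the Shank form whose loss alters striatal synapses in mice, averaged 146 ± 47.1 CPM in escalating, 168 ± 56.7 CPM in nonescalating and 202 ± 111 CPM in saline libraries at 24 hours. At 1 month it averaged 192 ± 38.5 CPM in escalating, 175 ± 36.1 CPM in nonescalating and 169 ± 54.4 CPM in saline libraries. Dlgap1 and Dlgap2 link the Dlg proteins to Shank. Dlgap1 averaged 195 ± 56.9 CPM in escalating, 243 ± 75.3 CPM in nonescalating and 271 ± 191 CPM in saline libraries at 24 hours, and the saline libraries ran from 171 to 660 CPM with all 6 and from 190 to 225 CPM without 1573 and 1574. Dlgap2 averaged 318 ± 70.7 CPM in escalating, 318 ± 46.2 CPM in nonescalating and 330 ± 207 CPM in saline libraries at 24 hours. At 1 month Dlgap1 averaged 188 ± 16.4, 202 ± 45.4 and 222 ± 27.4 CPM, and Dlgap2 325 ± 34.4, 366 ± 79.6 and 342 ± 76.4 CPM, in escalating, nonescalating and saline libraries in that order. For Dlg2, the means at 24 hours were 1050 ± 266 CPM in escalating, 1200 ± 316 CPM in nonescalating and 1080 ± 177 CPM in saline libraries.

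Among the members, escalating cocaine and saline libraries at 24 hours had the smallest unadjusted p for Shank1, whose messenger RNA is known to be carried into dendrites and whose protein anchors Homer at the synapse. Shank1 had 240, 253, 217, 254 and 247 CPM in the escalating libraries. In the saline libraries it had a lowest level of 266, a median of 442 and a highest level of 1510 CPM. With these TMM-scaled totals every escalating library was below every saline library. With plain totals the groups overlapped, at 224 to 292 CPM in the escalating and 277 to 1500 CPM in the saline libraries. Among all genes tested, 0.304% had groups that did not overlap in this comparison on the TMM scale. The log2 fold change of Shank1 was -1.65 ± 0.44 (SE; unadjusted p = 0.000923, adjusted p = 0.953, edgeR). It stood at place 12 of 14137 genes by unadjusted p. Without libraries 1573, 1574 and 1582 the saline libraries had 266 to 533 CPM and did not overlap with the escalating ones on the TMM scale; with plain totals library 1572, at 277 CPM, still lay below the highest escalating library. The log2 fold change was then -0.58 (unadjusted p = 0.0133, edgeR). The share of 0.304% is that of the full groups, and none was computed with these libraries left out.

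Homer2, one of the Homer forms that join Shank to group I metabotropic receptors, had 10.8, 7.14, 3.77, 1.24 and 9.69 CPM in the escalating libraries at 24 hours. In the saline libraries it had a lowest level of 1.06, a median of 15.7 and a highest level of 97.5 CPM. The groups overlapped, and the highest saline values were those of libraries 1573 (75.0 CPM) and 1574 (97.5 CPM). The log2 fold change of -2.43 ± 0.87 (SE; unadjusted p = 0.00991, adjusted p = 0.953, edgeR) became -0.43 without the 3 libraries (unadjusted p = 0.542). Dlgap3, the Dlgap form whose loss causes compulsive grooming in mice through striatal synapses, had 54.6, 89.4, 114, 56.9 and 84.1 CPM in the escalating libraries. In the saline libraries it had a lowest level of 64.1, a median of 119 and a highest level of 436 CPM, and the groups overlapped. Its log2 fold change was -1.08 ± 0.40 (SE; unadjusted p = 0.0124, adjusted p = 0.953, edgeR). It was -0.51 without library 1574 alone (unadjusted p = 0.127, edgeR) and -0.35 without the 3 libraries (unadjusted p = 0.28).

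These 3 genes were the members at an unadjusted p under 0.05 in this comparison, all with lower levels in the escalating libraries, against 5.16% of all genes tested. Of the 9 members tested, 1 had a positive log2 fold change, Shank2 at 0.21, and the median was -0.48. The median was -0.30 without the 3 libraries, with 1 positive, and -0.20 without library 1574 alone, with 2 positive. Over all genes 45.6% were positive and the median was -0.06. The remaining members, Shank3 (-0.48), Dlgap1 (-0.49), Dlg4 (-0.16), Dlgap2 (-0.06) and Dlg2 (-0.05), had log2 fold changes with unadjusted p-values of 0.144 to 0.823.

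Marker lists of other cell types also had negative median log2 fold changes in this comparison, given with all libraries only. The highest saline sums of the oligodendrocyte and astrocyte markers below were those of library 1573. Oligodendrocyte markers had a median log2 fold change of -2.43, with 0 of 6 positive. Their summed level was 81.0 to 189 CPM in the escalating and 77.8 to 1540 CPM in the saline libraries. Astrocyte markers had a median of -1.99, with 2 of 7 positive, and summed levels of 241 to 452 CPM in the escalating and 375 to 3230 CPM in the saline libraries. Markers of glutamatergic projection neurons had a median of -2.14, with 1 of 6 positive, and summed levels of 6.20 to 52.4 CPM in the escalating and 6.76 to 452 CPM in the saline libraries. Of that list Neurod2 was at 0 in 3 of 5 escalating and 2 of 6 saline libraries, and Neurod6 in 3 of 5 escalating and 3 of 6 saline libraries. The part of these cells in the member differences was not tested.

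In escalating versus nonescalating libraries at 24 hours, Shank1 was the member with the smallest unadjusted p, and the groups overlapped. It had 217 to 254 CPM in the escalating libraries, and a lowest level of 245, a median of 356 and a highest level of 1250 CPM in the nonescalating libraries. Of 9 nonescalating libraries, 8 were above every escalating library. Its log2 fold change was -1.02 ± 0.41 (SE; unadjusted p = 0.019, adjusted p = 1, edgeR), and -0.69 without library 1582 alone (unadjusted p = 0.0619, edgeR). The fit without all 3 libraries, of which 1573 and 1574 are saline, gave -0.68 (unadjusted p = 0.00155). With all libraries it alone of 9 members was at an unadjusted p under 0.05, against 3.15% of all genes. Dlg4, which encodes PSD-95, averaged 502 ± 90.7 CPM in the escalating (SD, n = 5) and 661 ± 131 CPM in the nonescalating libraries (SD, n = 9), with overlapping groups and a log2 fold change of -0.40 ± 0.23 (SE; unadjusted p = 0.092, edgeR). Of the 9 members 1 was positive and the median was -0.32, and of all genes 47.6% were positive with a median of -0.03. Of 32 other genes of the same complex, the partners described below, 6 were positive with a median of -0.19. Homer2 had 1.24 to 10.8 CPM in the escalating and 2.80 to 29.9 CPM in the nonescalating libraries (log2 fold change -1.07 ± 0.78, SE; unadjusted p = 0.184, edgeR). The glutamatergic projection neuron markers had a median log2 fold change of -2.61 there, with 0 of 6 positive, and summed levels of 6.20 to 52.4 CPM in the escalating and 1.42 to 477 CPM in the nonescalating libraries. The vascular markers had a median of 1.44, with 6 of 6 positive, and summed levels of 129 to 1530 CPM in the escalating and 51.6 to 392 CPM in the nonescalating libraries. Their part in the member differences was not tested.

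Nonescalating and saline libraries at 24 hours overlapped for every member. Dlgap3 had a lowest level of 48.9, a median of 99.7 and a highest level of 170 CPM in the nonescalating libraries, and 64.1, 119 and 436 CPM for the same measures in the saline libraries. Its log2 fold change of -0.73 ± 0.34 (SE; unadjusted p = 0.0402, adjusted p = 0.469, edgeR) was 0.00 without the 3 libraries and -0.17 without library 1574 alone (unadjusted p = 0.566). It was the only member at an unadjusted p under 0.05, against 9.97% of all genes. Shank1 averaged 488 ± 305 CPM in the nonescalating (SD, n = 9) and 748 ± 596 CPM in the saline libraries (SD, n = 6). Without the 3 libraries the means were 393 ± 115 CPM in the nonescalating (SD, n = 8) and 367 ± 116 CPM in the saline libraries (SD, n = 4). Oligodendrocyte markers had a median log2 fold change of -2.06 in this comparison, with 0 of 6 positive, and summed levels of 105 to 478 CPM in the nonescalating and 77.8 to 1540 CPM in the saline libraries. Vascular markers had a median of -1.71, with 0 of 6 positive, and astrocyte markers one of -0.84, with 2 of 7 positive. Vascular markers summed to 51.6 to 392 CPM in the nonescalating and 151 to 1640 CPM in the saline libraries, and astrocyte markers to 296 to 1310 CPM in the nonescalating and 375 to 3230 CPM in the saline libraries. These markers had their highest saline sums in library 1573, and their values are given with all libraries only. Their part in the member differences was not tested.

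**Figure D3:**
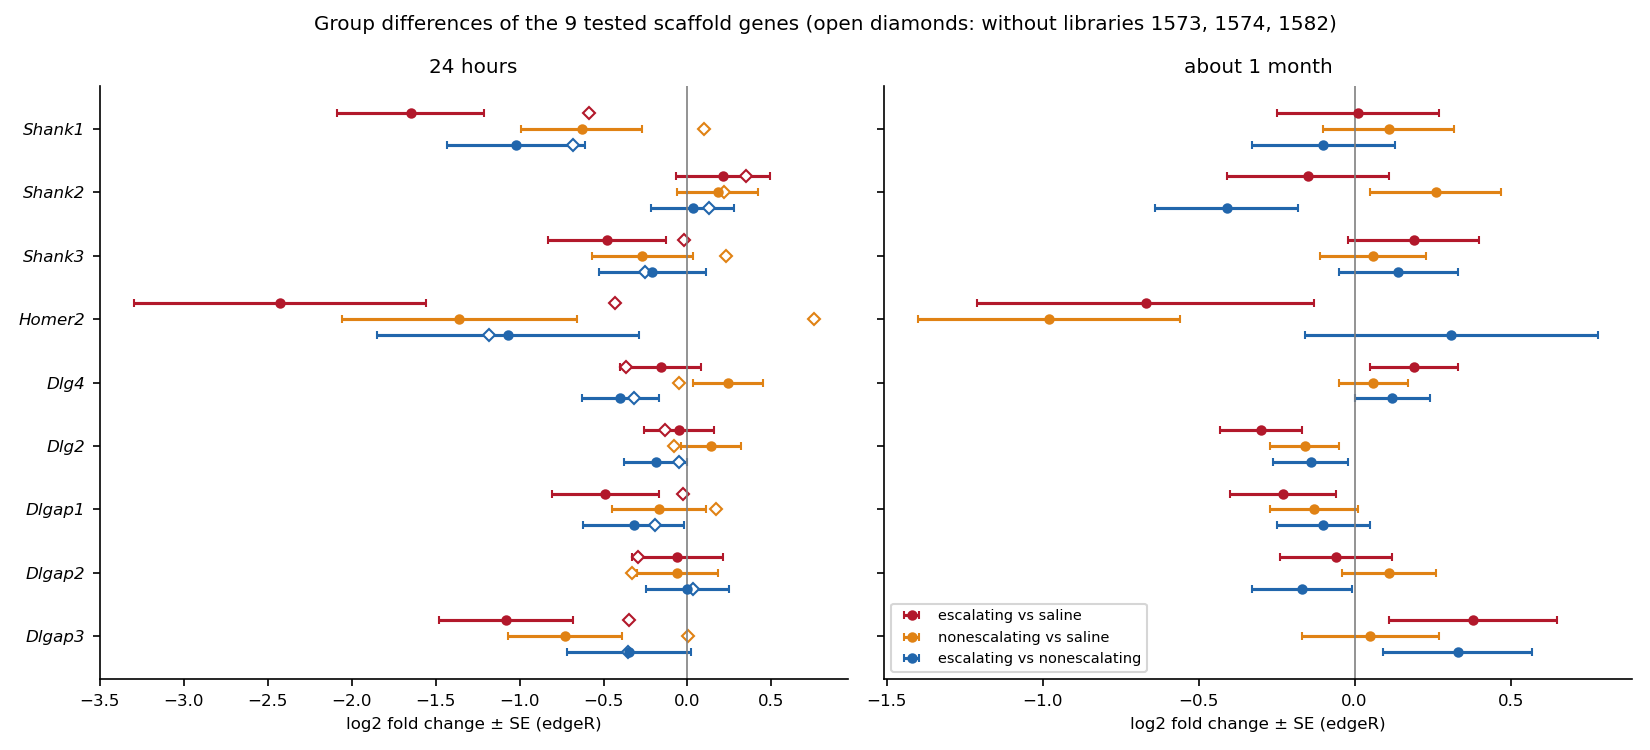
Log2 fold changes ± SE (edgeR) of the 9 tested scaffold genes at 24 hours and about 1 month, in escalating versus saline, nonescalating versus saline and escalating versus nonescalating libraries. The open diamonds at 24 hours leave out libraries 1573, 1574 and 1582; Shank1 in escalating versus saline is at -1.65 with all libraries and at -0.58 without them.

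At about 1 month the group means of Shank1 lay close together. Shank1 averaged 362 ± 96.4 CPM in the escalating (SD, n = 4), 389 ± 125 CPM in the nonescalating (SD, n = 10) and 364 ± 99.2 CPM in the saline libraries (SD, n = 5). Its log2 fold change was 0.01 ± 0.26 (SE) in escalating versus saline libraries and 0.11 ± 0.21 (SE) in nonescalating versus saline libraries. In escalating versus saline libraries Dlg2 had 1060, 1000, 1010 and 893 CPM in the escalating libraries, and 1430, 1470, 1130, 1070 and 1050 CPM in the saline libraries. The ranges overlapped by the lowest saline value. The log2 fold change of Dlg2 was -0.30 ± 0.13 (SE; unadjusted p = 0.0337, adjusted p = 1, edgeR). The unadjusted p was over 0.05 in 5 of the 9 fits that left out 1 library, and with a GC index of the libraries (the level of GC-rich relative to GC-poor genes) as a covariate the log2 fold change was -0.06 (unadjusted p = 0.609). It was the only member at an unadjusted p under 0.05, against 4.36% of all genes.

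Homer2 was the 1 member at an unadjusted p under 0.05 in nonescalating versus saline libraries at 1 month, against 4.53% of all genes. It had a lowest level of 2.53, a median of 9.02 and a highest level of 26.3 CPM in the nonescalating libraries, and 27.6, 42.6, 7.42, 12.5 and 14.1 CPM in the saline libraries. The groups overlapped, and the log2 fold change was -0.98 ± 0.42 (SE; unadjusted p = 0.0278, adjusted p = 0.986, edgeR). Without saline library 1591, the highest, it was -0.55 (unadjusted p = 0.227, edgeR). The glutamatergic projection neuron markers had a median log2 fold change of 0.27 in this comparison, with 5 of 6 positive, and summed levels of 2.45 to 156 CPM in the nonescalating and 7.67 to 110 CPM in the saline libraries. In escalating versus nonescalating libraries 0 members were at an unadjusted p under 0.05, against 2.31% of all genes. The nearest was Shank2, with 190, 141, 149 and 111 CPM in the escalating libraries and 121 to 317 CPM in the nonescalating libraries (unadjusted p = 0.0887, edgeR).

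Between times, Shank1 in escalating libraries was the member whose groups did not overlap on the TMM scale. It had 485, 387, 262 and 316 CPM at 1 month and 217 to 254 CPM at 24 hours, with a log2 fold change of 0.58 ± 0.41 (SE; unadjusted p = 0.165, edgeR). Of all genes, 1.15% had groups that did not overlap in this comparison. With plain totals they overlapped for Shank1, at 266 to 500 CPM at 1 month and 224 to 292 CPM at 24 hours. Dlg4 had 685, 946, 660 and 533 CPM at 1 month and 420, 554, 623, 408 and 504 CPM at 24 hours, a log2 fold change of 0.49 ± 0.22 (SE; unadjusted p = 0.0287, adjusted p = 1, edgeR). Dlgap3 had 149, 207, 100 and 101 CPM at 1 month and 54.6 to 114 CPM at 24 hours, a log2 fold change of 0.80 ± 0.37 (SE; unadjusted p = 0.0367, adjusted p = 1, edgeR). These were 2 of 9 members at an unadjusted p under 0.05, against 1.72% of all genes. When scaled to medium spiny neuron markers, Dlg4 was at 0.28 and Dlgap3 at 0.59, with unadjusted p-values of 0.128 and 0.129. Markers of glutamatergic projection neurons had a median log2 fold change of 1.20 here, with 5 of 6 positive, and summed levels of 4.12 to 75.4 CPM at 1 month and 6.20 to 52.4 CPM at 24 hours. Vascular markers had a median of -1.13, with 0 of 6 positive, and summed levels of 149 to 593 CPM at 1 month and 129 to 1530 CPM at 24 hours. Oligodendrocyte precursor markers had a median of -1.11, with 0 of 3 positive, and summed levels of 14.3 to 32.4 CPM at 1 month and 11.9 to 99.9 CPM at 24 hours. Their part in the member differences was not tested.

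In saline libraries Shank1 had 452, 294, 382, 458 and 232 CPM at 1 month, and a median of 442 and a highest level of 1510 CPM at 24 hours. Its log2 fold change of -1.04 ± 0.38 (SE; unadjusted p = 0.00916, adjusted p = 0.217, edgeR) was -0.02 without the 3 libraries. Oligodendrocyte markers, with 0 of 6 positive, had a median log2 fold change of -2.43 here, and summed levels of 92.8 to 221 CPM at 1 month and 77.8 to 1540 CPM at 24 hours. These markers had their highest 24-hour sum in library 1573, and their values are given with all libraries only. Medians were also negative for markers of oligodendrocyte precursors (-3.65), vascular cells (-2.13), striatal interneurons (-2.04) and astrocytes (-1.05). The same held for microglia (-1.01), glutamatergic projection neurons (-0.79) and D2 medium spiny neurons (-0.13). Medians were positive for D1 (0.33) and for all medium spiny neurons (0.08). The part of these markers in the Shank1 difference was not tested. Shank1 was the only member at an unadjusted p under 0.05, against 13% of all genes. In nonescalating libraries 0 of 9 members were, against 4.64% of all genes, with log2 fold changes from -0.38 for Homer2 to 0.24 for Shank2.

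The change of a group difference from 24 hours to 1 month was tested as an interaction. For escalating versus saline libraries it was 1.62 ± 0.56 on the log2 scale for Shank1 (SE; unadjusted p = 0.00593, adjusted p = 0.998, edgeR) and 1.43 ± 0.51 for Dlgap3 (SE; unadjusted p = 0.00687, adjusted p = 0.998, edgeR). Without the 3 libraries these were 0.58 (unadjusted p = 0.106) and 0.72 (unadjusted p = 0.101). They were 2 of 9 members at an unadjusted p under 0.05, against 4.94% of all genes. For nonescalating versus saline libraries 0 members were, against 9.8%, and for escalating versus nonescalating libraries 0 members were, against 2.3%.

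Of 32 partner genes of the same complex, 0 passed an adjusted p of 0.05 in any comparison. Homer1, the third Homer gene, which also gives the short activity-induced form Homer1a, had a log2 fold change of -0.02 ± 0.33 (SE) in escalating versus saline libraries at 24 hours. At 1 month it averaged 241 ± 62.6 CPM in the escalating (SD, n = 4), 312 ± 80.4 CPM in the nonescalating (SD, n = 10) and 333 ± 52.1 CPM in the saline libraries (SD, n = 5). The log2 fold change in escalating versus saline libraries was -0.46 ± 0.20 (SE; unadjusted p = 0.0316, adjusted p = 1, edgeR). Gene counts do not separate the Homer1 forms. In the 24-hour escalating versus saline comparison, 10 of 32 partners were positive with a median log2 fold change of -0.05, and 2 were at an unadjusted p under 0.05, against 5.16% of all genes. The 3 partners with the smallest p there were Lrrc7 (-0.54), which encodes the scaffold protein densin, the spine GTPase regulator Sipa1l1 (-0.41) and Dlgap4 (-0.40). Of these Lrrc7 was highest in library 1574, at 1640 CPM against a saline median of 760 CPM. Sipa1l1 and Dlgap4 were highest in saline libraries 1570 and 1575. Partner values are given with all libraries only. The largest count of partners at an unadjusted p under 0.05 (edgeR) was 6 of 32, in escalating versus saline libraries at 1 month, against 4.36% of all genes. In saline libraries between times the count was 4, against 13% of all genes. At 1 month Nlgn1, which encodes the adhesion protein neuroligin 1, had the smallest p of the partners against saline, at -0.56 in escalating (unadjusted p = 0.00901) and -0.46 in nonescalating libraries (unadjusted p = 0.00753, edgeR). Next came Baiap2, an actin regulator of spines, at 0.35 in escalating and 0.26 in nonescalating libraries, and Sharpin, a Shank-binding protein, at -0.69 in nonescalating libraries. The saline libraries at 1 month enter each Sharpin value given here. Sharpin averaged 24.8 ± 18.5 CPM in them (SD, n = 5), with a median of 19 CPM and a highest level of 57.1 CPM in library 1592. In escalating versus nonescalating libraries at 1 month the smallest p-values were those of Cript (-0.63), Homer1 (-0.37) and Begain (0.39). At 24 hours they were those of Synpo (-0.47), Itpr1 (-0.29) and Kalrn (-0.30) in escalating versus nonescalating libraries, and of the NMDA receptor subunit gene Grin2a (0.80), Dlg3 (0.47) and Lrrc7 (-0.32) in nonescalating versus saline libraries. These 6 log2 fold changes had unadjusted p-values of 0.0602 to 0.169 (edgeR). Synpo, Itpr1, Kalrn and Grin2a had their highest nonescalating 24-hour level in library 1582, Grin2a at 127 CPM against a median of 35.1 CPM. Dlg3 had its lowest nonescalating level in that library. Between 1 month and 24 hours, Sharpin (1.25), Dlg3 (0.53) and Nlgn1 (0.54) had the smallest p-values in saline libraries, Homer1 (0.30), Baiap2 (0.20) and Dynll1 (0.20) in nonescalating libraries, and Synpo (0.47), Itpr1 (0.35) and Dlg3 (0.35) in escalating libraries. The change of the group difference over time was led by Sharpin against saline, at -1.58 for escalating and -1.30 for nonescalating libraries, and by Synpo for escalating versus nonescalating libraries, at 0.53. After Sharpin came Kalrn (0.51) and Lrrc7 (0.48) for escalating versus saline libraries, and Dlg3 (-0.51) and Nlgn1 (-0.56) for nonescalating versus saline libraries. After Synpo came Grin2b (0.33) and Cript (-0.50). No partner passed an adjusted p of 0.05 in any comparison.

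Across the 39 libraries the members did not vary as 1 block. Of 45 pairs 30 had a positive Spearman correlation of log2 CPM, and the median was 0.11, with a range from -0.38 to 0.77. These correlations share libraries, depth and base composition and are a description. Shank3 and Dlgap3 were the closest pair (Spearman 0.77, Pearson 0.74, n = 39), with 0.73 (Spearman) without libraries 1573, 1574 and 1582 and 0.74 (Pearson) after subtraction of group means. Leaving out the 2 libraries farthest from the Shank3 median, 1570 and 1574, gave a Pearson correlation of 0.76. Dlg2 and Dlgap1 formed another pair (Spearman 0.60, Pearson 0.45), and each had a negative Spearman correlation with Shank3 (-0.36 for Dlg2 and -0.30 for Dlgap1). The Pearson correlation with Shank3 was -0.37 for Dlg2 and -0.04 for Dlgap1. Dlg4 and Dlgap3 had a Spearman correlation of 0.48, and 0.74 without the 3 libraries, which was then the highest of the 45 pairs. Their Pearson correlation was 0.27, and 0.77 without the 3 libraries.

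**Figure D4:**
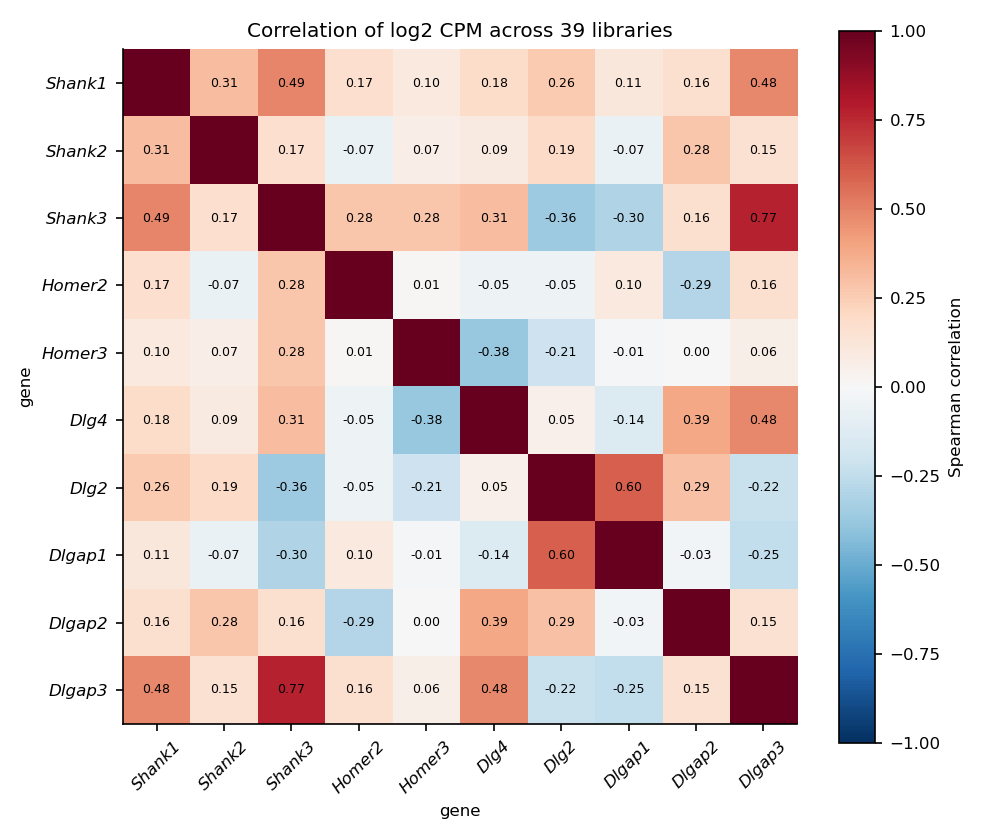
Spearman correlation of log2 CPM between each pair of the 10 scaffold genes across 39 libraries, printed in each cell and coloured from -1 to 1. Shank3 and Dlgap3 stand out at 0.77 and Dlg2 and Dlgap1 at 0.60.

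The genes of these pairs differed in base composition. The GC content of the transcripts was 62.4% for Shank3 and 64.7% for Dlgap3, against 44.1% for Dlg2 and 52.6% for Dlgap1. It was 62.7% for Shank1, 54.5% for Dlg4 and 47.2% for Homer2. A GC index of each library was taken as the mean log2 CPM of genes with a transcript GC content above the upper quartile (55.1%) minus that of genes below the lower quartile (45.9%). It had a Spearman correlation of 0.56 with Shank3, 0.46 with Dlgap3 and 0.34 with Dlg4. It had -0.63 with Dlg2, -0.70 with Dlgap1. For Shank1, as GC-rich as Shank3, it was 0.02, and for Homer2 -0.04. The part of base composition in the pairs was not tested.

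Promoters of Shank3 and Dlgap3, the closest pair over all 39 libraries, are shown because the 2 genes varied together. They run from 250 bases before to 50 after the start (RefSeq, GRCm38.p6, plus strand), and capitals mark GGGCGG on either strand, the GC box.
Shank3, chr15:89499358-89499657: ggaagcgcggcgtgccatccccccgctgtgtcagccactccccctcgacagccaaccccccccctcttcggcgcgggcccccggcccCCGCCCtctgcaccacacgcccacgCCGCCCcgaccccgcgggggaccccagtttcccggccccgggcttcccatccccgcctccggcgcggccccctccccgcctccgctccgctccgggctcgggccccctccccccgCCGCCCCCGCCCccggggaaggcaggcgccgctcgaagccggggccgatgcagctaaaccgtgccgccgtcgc
Dlgap3, chr4:127172630-127172929: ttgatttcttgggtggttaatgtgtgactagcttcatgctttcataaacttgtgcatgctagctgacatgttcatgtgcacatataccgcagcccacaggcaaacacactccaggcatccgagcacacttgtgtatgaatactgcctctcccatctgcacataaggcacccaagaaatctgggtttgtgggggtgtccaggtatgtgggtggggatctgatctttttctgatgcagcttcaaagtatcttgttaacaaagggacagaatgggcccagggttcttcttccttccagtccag
The Shank3 window held 4 matches, 40 CpG and 81.0% GC. The Dlgap3 window held 0 matches, 2 CpG and 47.7% GC. The Shank3 window spans the start of the gene as annotated, whereas the Dlgap3 window lies inside its gene, at a start downstream of the first annotated one, so the 2 windows are not like places in their genes. Among 32851 RefSeq promoters of this length, 35.7% held a match, the median number of CpG was 7 and the median GC content 52.7%.

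Homer2 varied with markers of glutamatergic projection neurons. The Spearman correlation with the mean log2 CPM of the 6 markers was 0.61 (n = 39), and 0.67 without the 3 libraries (n = 36). Among the genes most alike to it, of the 15578 searched, were Adra2a (Spearman 0.72) and Prdm8 (0.69). For Shank1 the same marker list gave 0.22. The most alike genes of Shank1 were Cdk16 (0.77), the astrocyte glutamate transporter gene Slc1a2 (0.70) and the myelin gene Mobp (0.68). Without the 3 libraries they were Cdk16 (0.72), Srcin1 (0.68) and Cep170b (0.66). Shank1 had a Pearson correlation of 0.65 with the oligodendrocyte markers over 39 libraries, and 0.20 over 36. The Spearman correlation was 0.31 over 39 libraries and 0.14 over 36. Over 39 libraries the most alike genes were Dlgap3 (0.77), Zswim8 (0.74) and Palm (0.70) for Shank3. They were Git1 (0.81), Dact3 (0.77) and Shank3 (0.77) for Dlgap3, and Arnt2 (0.75), Crtc1 (0.74) and Atp2a2 (0.74) for Dlg4. These lists changed without the 3 libraries. Shank3 then had Snrpa (0.78), Tesk1 (0.74) and Agpat1 (0.73). Dlgap3 had Cnih2 (0.85), Ube2v1 (0.85) and Git1 (0.84), and Dlg4 had Git1 (0.82), Scn2b (0.82) and Ddn (0.76).

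**Figure D5:**
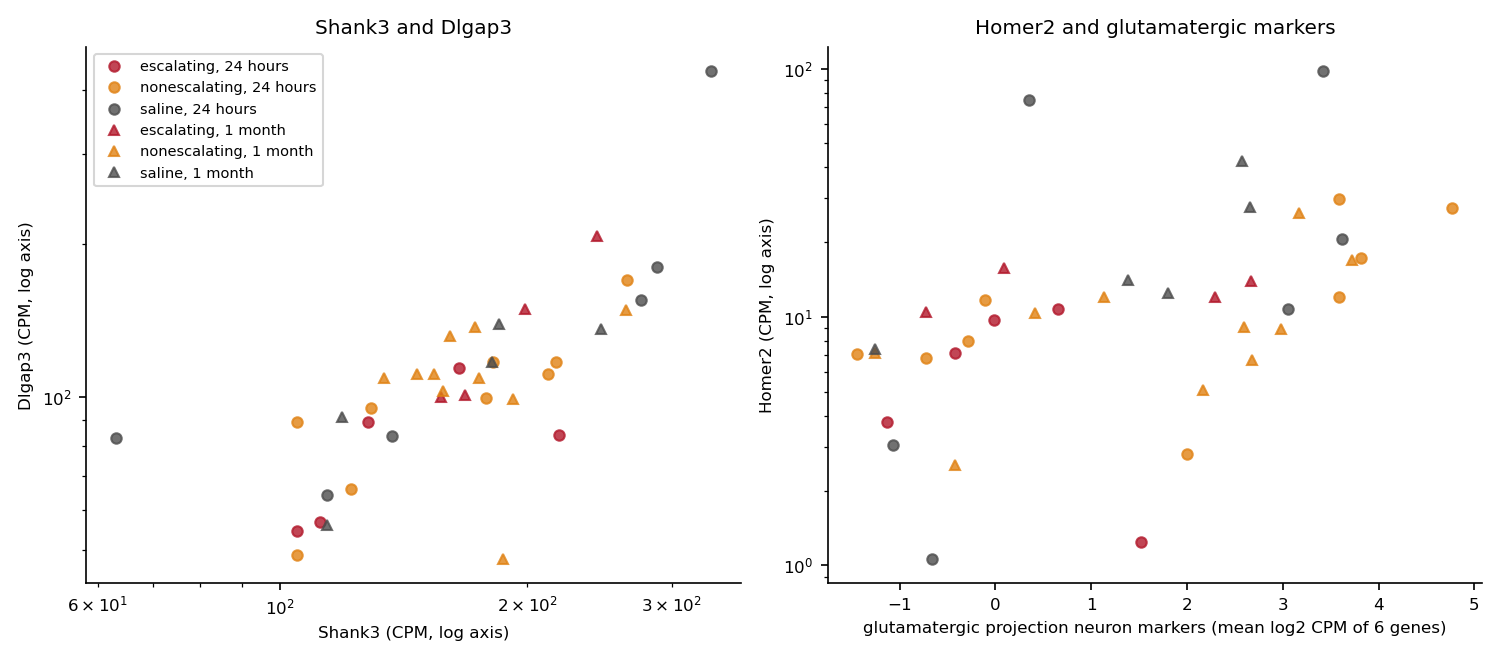
Left, Dlgap3 against Shank3 (CPM, log axes) in 39 libraries, coloured by group and shaped by time. Right, Homer2 (CPM, log axis) against the mean log2 CPM of 6 glutamatergic projection neuron markers; the Spearman correlations are 0.77 and 0.61.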

How the data were processed

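The authors deposited raw counts by gene symbol. The submitters' processing notes name STAR 2.0.0e, mm10 and HTSeq; for annotation and strand they were silent (not given in the sources used here), and Shank1 and Homer3 have exons that overlap a gene on the opposite strand (1700008O03Rik and Ddx49). Tests used edgeR 4.0.16 under R 4.3.3 (filterByExpr with a minimum count of 10, TMM, robust quasi-likelihood F tests, two-sided), fitted over the 20 libraries at 24 hours, the 19 at 1 month, or all 39 for times and interactions, with Benjamini-Hochberg adjustment over all genes and a threshold of 0.05. The script was tested on simulated data. Library pairs within groups (122) had a chi-square per gene of 12.8 to 313, so none repeated another. CPM use TMM-scaled totals; log2 CPM use a prior count of 2. Named genes were all members, of 32 partners the 3 with the smallest p per comparison plus Homer1, and the 3 most alike genes of 5 members. Members, lists and the 3 libraries set apart were chosen with earlier results of these data known. Alternatives used DESeq2 1.42.0 and limma 3.58.1, among others. One gene that the naming rule picks is not reported here.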

Additional observations from a re-analysis of the deposited data

Results flagged for a closer look

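Of 60 member and group combinations with 4 to 10 libraries, 13 held a library whose gap to its nearest neighbour, relative to the range of the group, was above Dixon's critical value. Chance gives about 1 in 20 for independent, normally distributed values, which these are not: the combinations share libraries, and Homer3 is mostly at 0. In library 1582 (nonescalating, 24 hours) Shank1 had 1250 CPM, against 245 to 577 CPM in the other 8, and Dlg2 had 1980 CPM, against 931 to 1230 CPM. In library 1574 (saline, 24 hours) Dlgap1 had 660 CPM, against 171 to 225 CPM in the other 5, and Dlgap3 had 436 CPM, against 64.1 to 180 CPM. In library 1575 of the same group Dlgap2 had 742 CPM, against 159 to 295 CPM. In library 1588 (escalating, 24 hours) Dlgap2 had 440 CPM, against 266 to 313 CPM. Among nonescalating libraries at 1 month Shank3 had 264 CPM in 1604 (134 to 192 CPM in the others), Dlg2 had 1530 CPM in 1596 (963 to 1170 CPM), and library 1597 had 311 CPM of Dlgap1 (159 to 237 CPM) and 48.1 CPM of Dlgap3 (99.1 to 148 CPM). Homer3, with few counts, had 8.75 CPM in 1573 (at most 2.15 CPM in the others), 0.357 CPM in 1580 (0 in the others) and 2.15 CPM in 1590 (at most 0.0843 CPM).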

How the results depend on the processing

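No member was called in 199 of 200 refits of the 12 comparisons; leaving out 1 library gave 0 to 0. The exception was the saline time comparison with DESeq2, with 1 member called (Shank1, log2 fold change -1.24). It was 1 of 583 genes called there, where 15579 genes were tested with edgeR. With edgeR this Shank1 difference was all but gone without libraries 1573, 1574 and 1582. Among the 12 member results at an unadjusted p under 0.05, Dlgap3 in nonescalating versus saline libraries at 24 hours was at 0.00 without libraries 1573, 1574 and 1582, the other side of 0. Of 1098 member values refitted without leaving out single libraries, 91 had the other sign, as did 40 of 780 with 1 library left out. Over all genes edgeR called 0 in each comparison. DESeq2 called 164 in nonescalating versus saline libraries at 24 hours (8 in escalating versus saline, 3 in escalating versus nonescalating), 8 in nonescalating versus saline at 1 month, 583, 3 and 6 between times in saline, nonescalating and escalating libraries, and 109, 10 and 6 for the interactions of nonescalating versus saline, escalating versus saline and escalating versus nonescalating. edgeR called 129 in nonescalating versus saline at 24 hours with all 39 libraries in 1 fit, and 49 between times in saline libraries when scaled to medium spiny neuron markers. With replicate numbers as a block, which do not pair the libraries (same-number pairs had a median correlation of -0.01 at 24 hours and 0.02 at 1 month), 0 members were called and Shank1 in escalating versus saline libraries was at -1.53. With limma voom Homer2 there was at -0.93 (unadjusted p = 0.373). With the GC index as a covariate, chosen after seeing the data, Dlg2 at 1 month in escalating versus saline libraries was at -0.06 (unadjusted p = 0.609). The causes were not tested. Homer3 passed the filter on low counts in the fit over both times with the second run of nonescalating replicate numbers, and was tested there and without the filter.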
